A study of Mus musculus with 70 samples.

Results

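The 8 genes described here, Calb1, Pcp2, Pcp4, Car8, Itpr1, Rora, Homer3 and Inpp5a, are Purkinje cell genes known to be lowered in ataxia driven by the ATXN1-Capicua complex. They were taken by name from the 50789 gene identifiers of a table of read counts, and all 8 were found. Capicua, encoded by Cic, is a transcriptional repressor with a short and a long isoform. RNA was sequenced from mice labelled Cic-S-KO (without the short isoform), mice labelled Cic-L-KO (without the long isoform) and WT mice, which were littermate controls of both lines pooled into a single group. The cerebellum at 12 weeks of age gave 8 WT, 7 Cic-S-KO and 8 Cic-L-KO samples, and the cortex at 12 weeks gave the same numbers. Lung at postnatal day 6 gave 8 samples of each genotype. The labels give neither the allele of either knockout nor the line, sex or animal behind each sample, so p-values measure the spread between these samples.

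Purkinje cells are the output neurons of the cerebellar cortex, and their dysfunction or loss produces ataxia. In these cells, glutamate signalling drives phospholipase C to make inositol trisphosphate (IP3). IP3 opens the calcium channel ITPR1 in the endoplasmic reticulum, and calcium-binding proteins buffer the calcium released. The nuclear receptor RORA drives many of the genes that mature Purkinje cells express, and it has been tied to ataxin-1 disease together with Capicua.

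Total counts ran from 20440799 to 30464699 reads in cerebellum and from 20730808 to 32548951 in cortex. Total Cic RNA was higher by a log2 fold change of 0.15 in both knockouts of the cerebellum (edgeR adjusted p = 0.05004 for Cic-S-KO, not under 0.05, and 0.0253 for Cic-L-KO). In cortex it rose more, by 0.63 in Cic-S-KO (edgeR adjusted p = 1.35e-12) and 0.88 in Cic-L-KO (edgeR adjusted p = 9.49e-18). Since the counts sum over isoforms, they cannot show the loss of one isoform, and genotypes are those of the labels. Atxn1, which encodes the partner of Capicua in spinocerebellar ataxia, rose by 0.36 in Cic-L-KO cerebellum (edgeR adjusted p = 0.000572) and had a log2 fold change of -0.22 in Cic-S-KO (edgeR adjusted p = 0.0617). The cortex values of Atxn1 were 0.90 in Cic-L-KO (edgeR adjusted p = 2.68e-16) and -0.23 in Cic-S-KO (edgeR adjusted p = 0.00335). Atxn1l, its paralog, had log2 fold changes in cerebellum of 0.078 for Cic-S-KO (edgeR adjusted p = 0.319) and 0.0075 for Cic-L-KO (edgeR adjusted p = 0.928). In 1 cerebellum library, WT replicate 1, all 8 genes were at the lowest level of the WT group. The Itpr1 and Rora calls in Cic-S-KO and some list counts are given with and without it.

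The label of the gene set was checked in WT tissue. All 8 genes were higher in WT cerebellum than in WT cortex (edgeR adjusted p under 0.05), as were 38.2% of the 18032 genes tested. The log2 fold change was 9.58 for Pcp2, 6.995 for Car8, 5.49 for Homer3, 3.29 for Inpp5a, 3.04 for Calb1, 2.44 for Itpr1, 2.19 for Rora and 0.89 for Pcp4. Pcp2 was nearly restricted to cerebellum, with 0.168 ± 0.0678 CPM (read counts scaled to library size and normalised by TMM; SD, n = 8) in WT cortex and 140.4 ± 16.4 CPM in WT cerebellum. Calb1, Itpr1 and Rora, which cortical neurons also express, stood at 183 ± 17.7, 872 ± 86.3 and 118 ± 6.63 CPM in WT cortex.

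Levels of different genes are comparable only per length of exon. On the scale of CPM per kilobase, Car8 was the 21st gene of WT cerebellum at 632 ± 70.3, Calb1 the 59th at 330.1 ± 32.4 and Itpr1 the 78th at 273 ± 31.1. Inpp5a followed at 89.6 ± 8.08, Pcp2 at 76.8 ± 8.95, Homer3 at 75.1 ± 4.88 and Rora at 43.7 ± 3.26 CPM per kilobase. In this order, Calb1 and Itpr1 overlapped within 1 SD, as did Inpp5a with Pcp2 and Pcp2 with Homer3, whereas Car8 lay above and Rora below these genes. Pcp4 was far below the rest at 2.67 ± 0.482 CPM per kilobase, from only 47 to 99 reads a cerebellum library. Its identifier in the table carries a version that differs from the annotation used here, and 243 of its 1026 exon bases are shared with Igsf5 on the same strand. Whether this lowered its count was not tested, and its values are uncertain.

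The genes lie on 6 chromosomes (positions in GRCm38). Itpr1 (ENSMUSG00000030102.11) spans 108213096 to 108551109 on the plus strand of chromosome 6, and Rora (ENSMUSG00000032238.17) 68653786 to 69388246 on the plus strand of chromosome 9. Car8 (ENSMUSG00000041261.9) lies on the minus strand of chromosome 4 from 8143362 to 8239041. Calb1 (ENSMUSG00000028222.2) is on the plus strand of the same chromosome from 15881264 to 15908064. Homer3 (ENSMUSG00000003573.15) runs from 70282827 to 70294361 on the plus strand of chromosome 8, where Pcp2 (ENSMUSG00000004630.18) runs from 3623371 to 3625545 on the minus strand. Inpp5a (ENSMUSG00000025477.14) is on the plus strand of chromosome 7 from 139389109 to 139579652, 114.1 Mb from Cic on the same chromosome. Pcp4 (ENSMUSG00000090223.1) spans 96467606 to 96525793 on the plus strand of chromosome 16. Exons of Pcp2 share 941 of 1828 bases with Pet100 on the other strand, and those of Homer3 share 874 bases with Ddx49. Whether counting used strand is not given in the sources used here. Pet100 was lower in WT cerebellum than in WT cortex by a log2 fold change of -0.29 (edgeR adjusted p = 0.00208), while Pcp2 had only 1 to 15 reads a library in cortex and was far higher in cerebellum.

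The start regions of the genes were searched for letters that RORA and Capicua are known to bind. RefSeq windows (GRCm38.p6, 250 bases before to 50 after each start) existed for Pcp2, Pcp4, Homer3, Rora and Inpp5a. The half-site of ROR receptors, AGGTCA or its reverse complement TGACCT, was present in the windows of Pcp2, Pcp4 and Homer3. It was present for 18.1% of all 27025 genes, and in 16.3% of all 32851 windows. Of 4 Capicua octamers searched on both strands (TGAATGAA, TGAATGGA, TCAATGAA and TCAATGGA), 3.84% of all windows held any, and among the 5 genes only Pcp2 did. Its octamer, TGAATGGA, was present for 1.4% of all genes. The sites are shown 5′ to 3′ on the strand of the gene, with the motif in capitals. They are letters in a window, and binding was not measured. The exons named overlap the printed window, and not always the motif itself.
Pcp2, chr8:3625542-3625571, minus strand, untranslated exon of Pcp2 and, on the other strand, of Pet100: aaaggccttctcAGGTCAgagaccaggaga
Pcp2, chr8:3625269-3625298, minus strand, exon of Pcp2: ctcagggcaaaTGAATGGAttcttagtact
Pcp2, chr8:3625045-3625074, minus strand, exon of Pcp2: ggagtcaggggcAGGTCAgggaaggagact
Homer3, chr8:70282830-70282859, plus strand, exon of Homer3: agttcctcctctTGACCTcctggtgccctc
Pcp4, chr16:96467430-96467459, plus strand, no exon: tccttgctattgTGACCTgatcagccatga
The Pcp2 half-sites begin 12 and 26 bases before RefSeq starts and the octamer 5 bases before another. The first half-site, at 3625554 to 3625559, lies upstream of the annotated Pcp2 gene, which reaches only to 3625545. Its window therefore overlaps the Pcp2 exon only in its last bases. The Homer3 motif begins 157 bases and the Pcp4 motif 164 bases before a start.

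The central comparison asked whether loss of either Capicua isoform moved these genes in cerebellum. In Cic-S-KO cerebellum, 2 of 8 genes rose, Itpr1 and Rora, and 0 fell (edgeR adjusted p under 0.05). Over all 16643 genes tested, 4.34% were called higher, 3.89% lower and 8.23% in either direction. With all libraries, all 8 log2 fold changes were above zero, from 0.066 for Pcp4 to 0.31 for Itpr1, with a median of 0.16 against 0.0053 for all genes. These values include WT replicate 1, the lowest WT library for all 8 genes, which widens the differences. Leaving out a library took the value of Pcp4 as low as just below zero, and values of Itpr1 and Rora without WT replicate 1 are given below. The other 6 genes missed the threshold, although 6 of the 8 had an unadjusted p under 0.05. In Cic-L-KO cerebellum, 0 of 8 genes were called, against 21.5% of all genes (10.9% higher and 10.6% lower). There, 1 gene had an unadjusted p under 0.05, DESeq2 also called 0, and the log2 fold changes ran from -0.10 for Rora to 0.17 for Pcp2. The genes are lower in ataxin-1 ataxia by the way they were chosen, and none of them was called lower in either knockout of the cerebellum in this fit. In this bulk tissue, fewer cells of a type and less RNA per cell cannot be told apart.

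**Figure D1:**
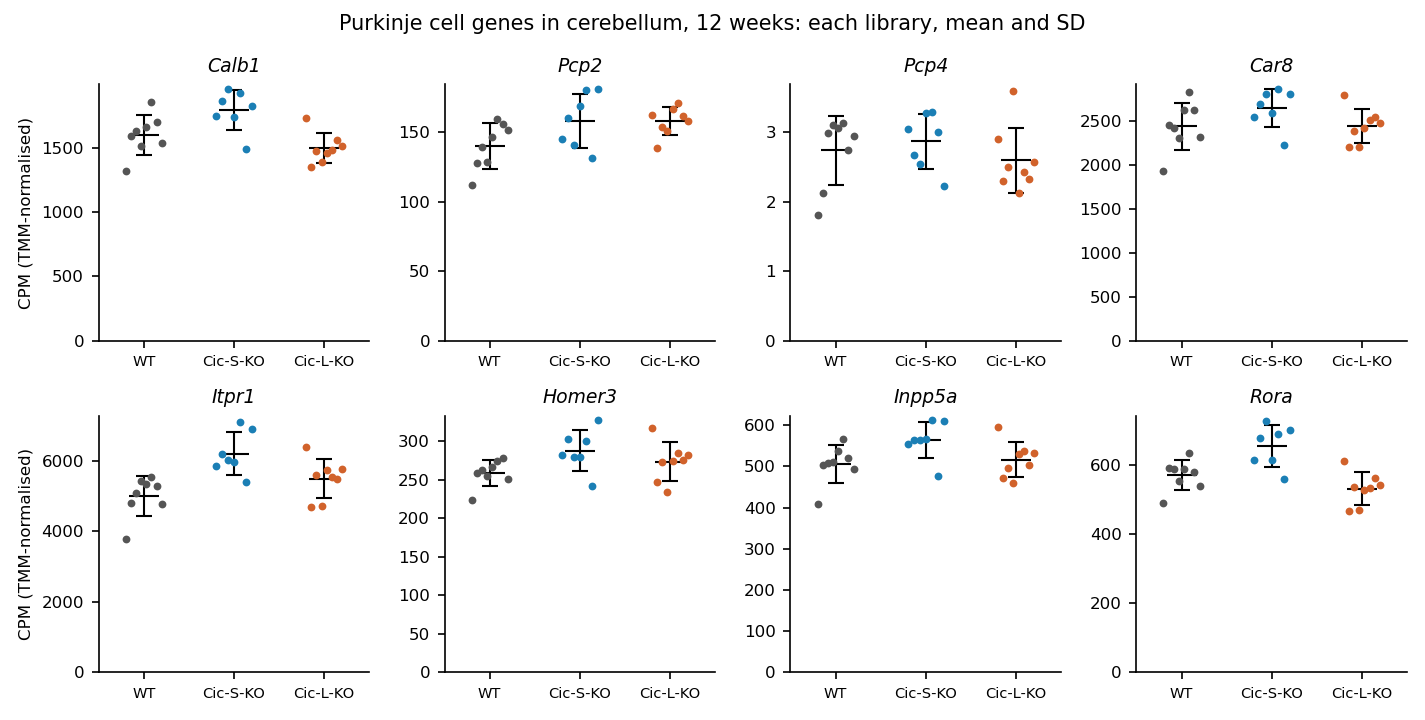
TMM-normalised CPM of the 8 genes in each cerebellum library by genotype; bars show the mean and SD (8 WT, 7 Cic-S-KO and 8 Cic-L-KO libraries). Itpr1 is above the highest WT library in 6 of 7 Cic-S-KO libraries, while the groups overlap for all 8 genes.

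Among the genes of IP3 signalling, Itpr1 encodes the IP3 receptor itself. Its CPM ran from 3773 (median 5182) to 5544 in WT cerebellum, from 5388 (median 6022) to 7098 in Cic-S-KO and from 4698 (median 5564) to 6381 in Cic-L-KO. Thus 6 of 7 Cic-S-KO libraries lay above the highest WT library, and 4 of 8 Cic-L-KO libraries did. The mean was 4999 ± 570.0 CPM in WT (SD, n = 8) and 6199.5 ± 605 in Cic-S-KO (n = 7), a log2 fold change of 0.31 (SE 0.074, edgeR adjusted p = 0.0106). In Cic-L-KO the mean was 5486 ± 559 CPM (n = 8) and the log2 fold change 0.13 (95% interval -0.013 to 0.28, edgeR adjusted p = 0.193). Itpr1 remained called in Cic-S-KO without WT replicate 1, the lowest of all 23 libraries, at a log2 fold change of 0.26 (edgeR adjusted p = 0.00976). Leaving out each of the 23 libraries in turn kept the call in every fit.

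Car8 encodes a carbonic anhydrase-related protein that binds ITPR1 and reduces its affinity for IP3. In WT it ran from 1928 (median 2436) to 2827 CPM, in Cic-S-KO from 2231 (median 2692) to 2865 and in Cic-L-KO from 2199.7 (median 2448) to 2799. The groups overlapped almost fully, with 1 of 7 Cic-S-KO libraries above the highest WT library. For Car8, Cic-S-KO had a log2 fold change against WT of 0.12 (95% interval -0.014 to 0.25, edgeR adjusted p = 0.264) and Cic-L-KO one of 0.0029 (95% interval -0.13 to 0.13, edgeR adjusted p = 0.981).

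Homer3 encodes a postsynaptic scaffold protein that binds ITPR1. It ran from 223 (median 260.4) to 277 CPM in WT, from 242 (median 282) to 327 in Cic-S-KO and from 234 (median 275) to 316 in Cic-L-KO. In Cic-S-KO, 6 of 7 libraries were above the highest WT library, and the remaining one, replicate 6, was below the WT median. The fitted log2 fold change of Homer3 for Cic-S-KO was 0.15 (95% interval 0.034 to 0.27, edgeR adjusted p = 0.0994), and that for Cic-L-KO was 0.080 (95% interval -0.035 to 0.20, edgeR adjusted p = 0.334). Ddx49, which shares exon bases with Homer3, had a log2 fold change of -0.021 in Cic-S-KO (edgeR adjusted p = 0.885).

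Inpp5a encodes a phosphatase that ends the signal by removing a phosphate from IP3. It ran from 409 (median 509) to 567 CPM in WT, from 477 (median 564) to 612 in Cic-S-KO and from 460.3 (median 517) to 595 in Cic-L-KO. A pair of libraries made the low ends, WT replicate 1 and Cic-S-KO replicate 6, each well below the rest of its group. Cic-S-KO differed from WT by 0.16 on the log2 scale (95% interval 0.034 to 0.28, edgeR adjusted p = 0.09998) and Cic-L-KO by 0.028 (95% interval -0.090 to 0.15, edgeR adjusted p = 0.778). Without Cic-S-KO replicate 6, Calb1, Homer3 and Inpp5a also passed the threshold in Cic-S-KO, which gave 5 called genes (edgeR adjusted p = 0.0379 for Inpp5a). The share of all genes called in that fit is not reported here. WT replicate 1 was the lowest WT library for Calb1, Homer3 and Inpp5a, so including it widens their Cic-S-KO difference. Their values without it are not reported here. Over the fits with a library left out, 1 to 5 genes were called in Cic-S-KO.

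Calb1 encodes calbindin, a calcium buffer and the usual stain for Purkinje cells. It ran from 1316 (median 1607) to 1855 CPM in WT, from 1486 (median 1819) to 1957 in Cic-S-KO and from 1349 (median 1479) to 1731 in Cic-L-KO. Relative to the WT median, 1 of 7 Cic-S-KO libraries and 7 of 8 Cic-L-KO libraries were lower. For Calb1, Cic-S-KO had a log2 fold change against WT of 0.16 (95% interval 0.036 to 0.29, edgeR adjusted p = 0.0982) and Cic-L-KO one of -0.099 (95% interval -0.22 to 0.024, edgeR adjusted p = 0.255). Neither was called against WT, yet the knockouts differed from each other, as given below.

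Pcp2 encodes a modulator of G protein signalling and Pcp4 a small protein that binds calmodulin. Pcp2 ran from 112 (median 143) to 159.8 CPM in WT, from 132 (median 160.2) to 181 in Cic-S-KO and from 138 (median 160.2) to 171 in Cic-L-KO. In each knockout, 4 libraries were above the highest WT library. The fitted log2 fold change of Pcp2 for Cic-S-KO was 0.17 (95% interval 0.022 to 0.33, edgeR adjusted p = 0.143), and that for Cic-L-KO was 0.17 (95% interval 0.025 to 0.32, edgeR adjusted p = 0.0888). Pet100, which shares exon bases with Pcp2, rose by 0.26 in Cic-L-KO (edgeR adjusted p = 0.0290) and had 0.20 in Cic-S-KO (edgeR adjusted p = 0.168). Pcp4 averaged 2.74 ± 0.495 CPM in WT, against 2.87 ± 0.401 for Cic-S-KO and 2.60 ± 0.465 for Cic-L-KO. Intervals of its log2 fold change ran from -0.21 to 0.34 and from -0.34 to 0.19. At its depth, a change as large as that of Rora would not be resolved.

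Rora encodes the nuclear receptor whose loss in the staggerer mouse leaves Purkinje cells immature. It ran from 492 (median 583) to 635 CPM in WT, from 559 (median 677) to 729 in Cic-S-KO and from 466.1 (median 536) to 611 in Cic-L-KO. In Cic-S-KO, 4 of 7 libraries were above the highest WT library, and in Cic-L-KO 2 of 8 were below the lowest. The mean was 571 ± 42.6 CPM in WT, against 655 ± 60.4 for Cic-S-KO and 532 ± 46.9 for Cic-L-KO. Cic-S-KO differed from WT by 0.20 on the log2 scale (SE 0.059, edgeR adjusted p = 0.0358) and Cic-L-KO by -0.10 (95% interval -0.22 to 0.015, edgeR adjusted p = 0.214). The Rora call was near the threshold: it was lost without WT replicate 1, 4, 7 or 8 or without Cic-S-KO replicate 2, 3, 5 or 7, with an edgeR adjusted p of 0.0521 and a log2 fold change of 0.17 without WT replicate 1. It was also lost with no count filter (edgeR adjusted p = 0.107). Rorb, another receptor of the same family, rose by 0.24 in Cic-S-KO (edgeR adjusted p = 0.0336).

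**Figure D2:**
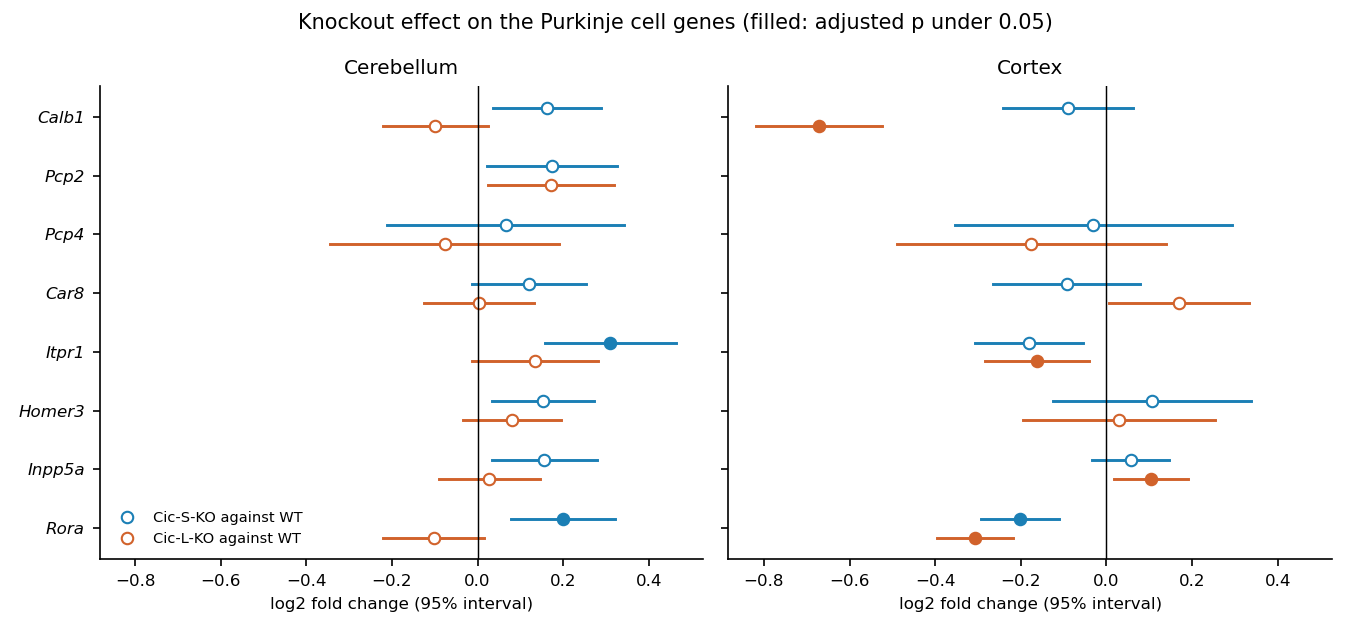
Log2 fold change against WT with its 95% interval for each gene in cerebellum (left) and cortex (right); filled points have an edgeR adjusted p under 0.05, and Pcp2 was too low to test in cortex. Calb1 in Cic-L-KO cortex is farthest from zero at -0.67, and Itpr1 in Cic-S-KO cerebellum is the highest at 0.31.

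Cic-S-KO and Cic-L-KO cerebellum were compared directly. Rora in Cic-S-KO exceeded that in Cic-L-KO by a log2 fold change of 0.30 (SE 0.059, edgeR adjusted p = 0.000995), and Calb1 by 0.26 (SE 0.062, edgeR adjusted p = 0.00510). These were 2 of 8 genes, where 6.06% of all genes were called higher in Cic-S-KO. Both calls held in each of the 23 fits with a library left out. Itpr1 had a difference of 0.18 (95% interval 0.024 to 0.33, edgeR adjusted p = 0.123), so its higher level in Cic-S-KO against WT was not shown to be particular to that knockout. Pcp2 had a difference of 0.0024 (95% interval -0.15 to 0.15, edgeR adjusted p = 0.989), and the other 4 genes ran from 0.072 for Homer3 to 0.14 for Pcp4.

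In cortex, taken as the contrast, 7 of the 8 genes were tested and Pcp2 was below the count filter, at 1 to 15 reads a library. In Cic-S-KO cortex 1 of 7 genes fell, Rora, where 3.7% of all 16974 genes were lower. In Cic-L-KO cortex 3 genes fell (Calb1, Rora and Itpr1) and 1 rose (Inpp5a), where 43.2% of all genes were called (21.4% higher and 21.9% lower), so a count of 4 of 7 is near that background. Calb1 ran from 167 (median 177) to 219 CPM in WT cortex, from 161 (median 172) to 186 in Cic-S-KO and from 99.3 (median 108) to 149 in Cic-L-KO. All 8 Cic-L-KO libraries were below the lowest WT library, with no overlap. Its log2 fold change was -0.67 in Cic-L-KO (SE 0.072, edgeR adjusted p = 5.71e-08) and -0.089 in Cic-S-KO (95% interval -0.24 to 0.062, edgeR adjusted p = 0.510).

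Rora ran from 107 (median 119) to 131 CPM in WT cortex, from 87.9 (median 104) to 112 in Cic-S-KO and from 87.9 (median 95.6) to 102 in Cic-L-KO. In Cic-L-KO, 8 of 8 libraries were below the lowest WT library, and in Cic-S-KO 5 of 7 were. The log2 fold change was -0.31 in Cic-L-KO (SE 0.043, edgeR adjusted p = 1.07e-06) and -0.20 in Cic-S-KO (SE 0.045, edgeR adjusted p = 0.00832). Itpr1 averaged 872 ± 86.3 CPM in WT cortex, against 769 ± 77.7 for Cic-S-KO and 779 ± 44.1 for Cic-L-KO. Its log2 fold changes were similar, -0.16 in Cic-L-KO (SE 0.059, edgeR adjusted p = 0.0276) and -0.18 in Cic-S-KO (SE 0.061, edgeR adjusted p = 0.0720), and only the first passed. Inpp5a rose by 0.10 in Cic-L-KO cortex (SE 0.042, edgeR adjusted p = 0.0469), a call lost with RLE normalisation, with no count filter and with the replicate number as a block (edgeR adjusted p = 0.0509, 0.0977 and 0.0656). With no count filter the Itpr1 call was lost too (edgeR adjusted p = 0.0722). Markers of other cells were examined in these cortex libraries too. In Cic-L-KO, 3 of 7 cortical excitatory neuron markers fell and 1 rose, with a summed CPM from 473 to 534 against 515 to 596 in WT. There, 2 of 3 deep nuclei and brainstem markers rose. Over all genes of Cic-L-KO cortex 21.4% rose and 21.9% fell, so the count of excitatory neuron markers is near that background. The summed CPM of 5 choroid plexus markers had a median of 409 (18.7 to 1297) in Cic-L-KO and 28.8 (21.3 to 589) in WT. In Cic-S-KO, where 1108 of all 16974 genes were called in either direction, 2 of 6 oligodendrocyte markers rose. The sum of 6 striatum markers had a median of 445 against 236 in WT, with 0 of 6 called by edgeR. Their part in the cortex values was not tested. Between the knockouts, Cic-S-KO cortex had more Calb1 (0.58, edgeR adjusted p = 1.00e-06) and less Car8 (-0.26, edgeR adjusted p = 0.0145) than Cic-L-KO cortex, where 33.9% of all genes were called. Car8 averaged 18.02 ± 2.29 CPM in WT cortex, against 16.9 ± 1.65 for Cic-S-KO and 20.3 ± 2.74 for Cic-L-KO.

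**Figure D3:**
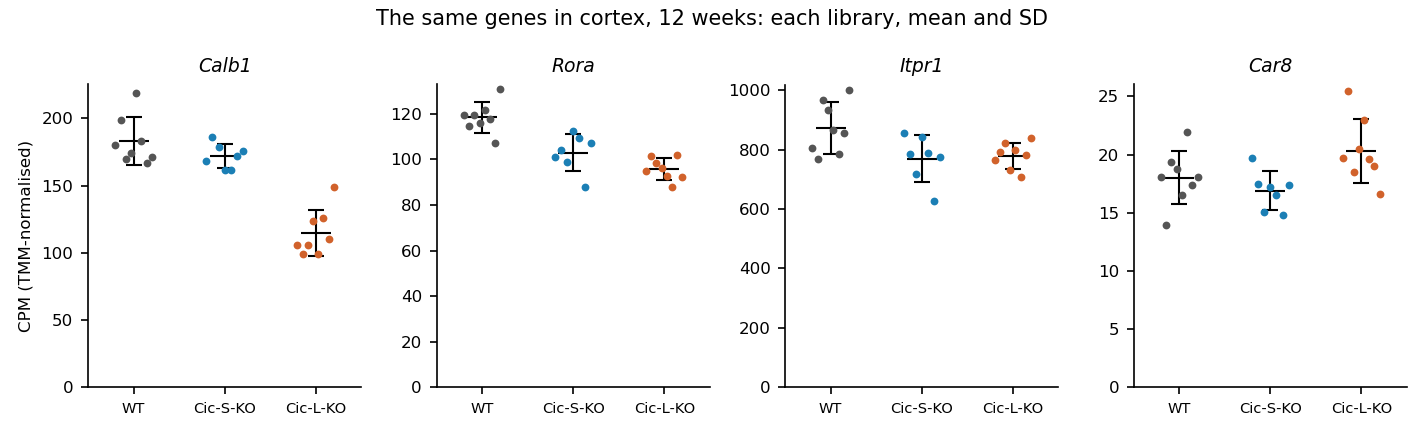
TMM-normalised CPM of Calb1, Rora, Itpr1 and Car8 in each cortex library by genotype, with the mean and SD (8 WT, 7 Cic-S-KO and 8 Cic-L-KO libraries). All 8 Cic-L-KO libraries are below the lowest WT library for Calb1 and Rora, while Itpr1 and Car8 overlap between genotypes.

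Whether a knockout effect differed between cerebellum and cortex was tested as an interaction over all 46 brain samples. For Cic-S-KO, the effect was higher in cerebellum by 0.49 for Itpr1 (SE 0.10, edgeR adjusted p = 0.00395) and by 0.40 for Rora (SE 0.078, edgeR adjusted p = 0.00250). These were 2 of 8 genes, against 2.5% of the 18032 genes tested that were called in this direction. For Cic-L-KO, the effect was higher in cerebellum by 0.57 for Calb1 (SE 0.097, edgeR adjusted p = 1.90e-05), 0.30 for Itpr1 (SE 0.099, edgeR adjusted p = 0.0242) and 0.20 for Rora (SE 0.076, edgeR adjusted p = 0.0447). That made 3 of 8 genes against 11.5% of all genes in this direction. The Cic-L-KO calls of Itpr1 and Rora were lost with no count filter (edgeR adjusted p = 0.0619 and 0.0837), and that of Rora at a mean of at least 50 counts (edgeR adjusted p = 0.0588). The 2 knockouts share the WT samples. For Rora the Cic-S-KO effects were 0.20 in cerebellum and -0.20 in cortex, called in opposite directions.

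In lung at postnatal day 6, Calb1, Pcp2 and Pcp4 were below the filter. Calb1 had at most 6 reads in WT and 3 in Cic-L-KO, with 82 reads in 1 Cic-S-KO library. Of the 5 genes tested in Cic-S-KO lung, Car8 rose and Inpp5a fell, where 15.7% of all 16695 genes were called. Car8 ran from 76.8 to 86.6 CPM in WT and from 87.1 to 109 in Cic-S-KO, so all 8 knockout libraries were above the highest WT library. Its log2 fold change was 0.21 (SE 0.048, edgeR adjusted p = 0.00450), and that of Inpp5a was -0.15 (SE 0.051, edgeR adjusted p = 0.0436). Homer3, Itpr1 and Rora had -0.12, -0.068 and -0.14, and did not pass. In Cic-L-KO lung 0 of 5 were called by edgeR or DESeq2, and 0 had an unadjusted p under 0.05, where 4.89% of all genes were called. Set against Cic-L-KO, Cic-S-KO lung had more Car8 (0.26, edgeR adjusted p = 0.000685) and less Inpp5a (-0.19, edgeR adjusted p = 0.0125), where 12.2% of all genes were called.

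Libraries of the same genotype also differed from one another, and most of the genes moved together. In WT cerebellum the highest library exceeded the lowest by 1.24 times for Homer3 to 1.73 times for Pcp4, and for each gene this was wider than the ratio of either knockout mean to the WT mean, which reached 1.24 for Itpr1. WT replicate 1 was the lowest WT library for 8 of 8 genes, and WT replicate 6 the highest for 7. Among Cic-S-KO libraries, replicate 6 was the lowest for 7 genes. Among Cic-L-KO libraries, replicate 1 was the highest for 6 genes, and replicates 2 and 4 were the lowest for 4 and 3.

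**Figure D4:**
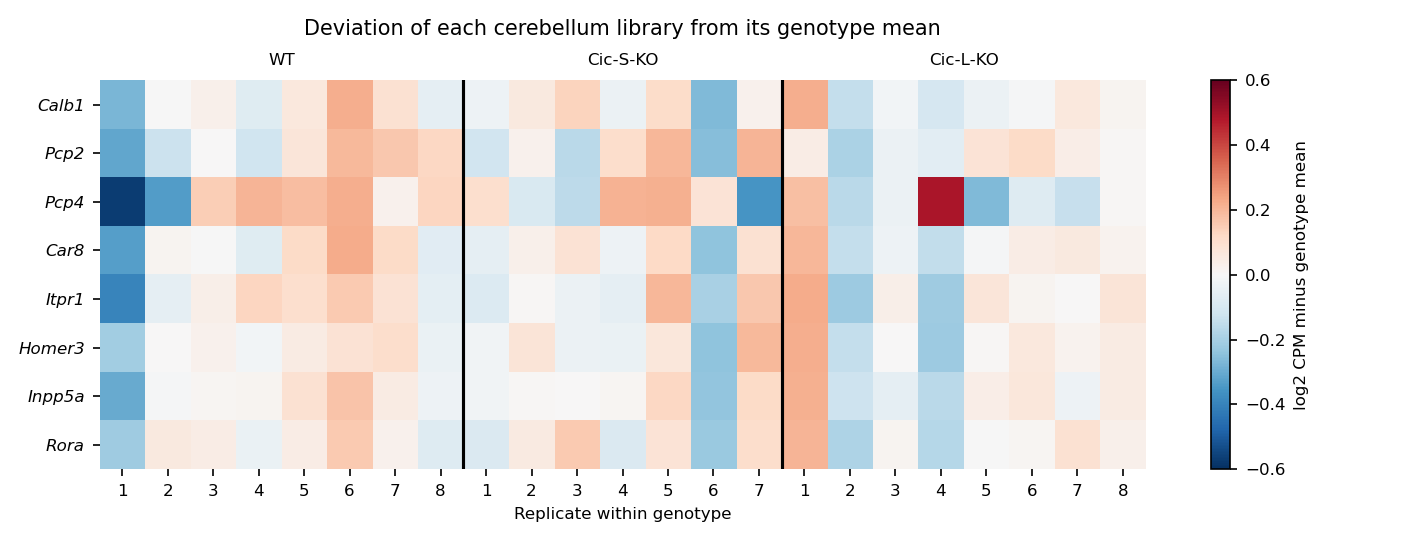
Log2 CPM of each gene in each cerebellum library minus the mean of its genotype (columns: 8 WT, 7 Cic-S-KO and 8 Cic-L-KO replicates; color from -0.6 to 0.6). WT replicate 1 and Cic-S-KO replicate 6 are low across genes and Cic-L-KO replicate 1 is high, while Pcp4 follows the others less.

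After subtracting genotype means, the 21 pairs of genes without Pcp4 had Pearson correlations from 0.58 (Pcp2 with Rora) to 0.97 (Calb1 with Car8), with a median of 0.87 over 23 libraries. The 7 pairs with Pcp4 ran from 0.0080 to 0.30. These correlations describe libraries that share tissue pieces and normalisation, and carry no test. By the same measure, the genes outside the set whose pattern was most like the mean of the 8 included Icmt (r = 0.96), Ywhah (0.95), Ppp1r17 (0.95) and Ptprr (0.95). Of these, Ppp1r17 is itself a Purkinje cell gene, and Icmt encodes an isoprenylcysteine methyltransferase.

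Levels of other cell types moved with these libraries. The summed CPM of 6 oligodendrocyte markers was highest, among WT libraries, in replicate 1 (10375) and, among Cic-S-KO libraries, in replicate 6 (11769), against group medians of 7568 and 8388. The summed CPM of 6 markers of deep nuclei and brainstem was also highest in the same libraries, at 143 and 170.4 against medians of 62.7 and 77.5, with 4 of the 6 under 1 CPM on average. Granule cell markers were lowest in them, at 6232 and 4442. The part of these cell types in the low Purkinje values was not tested.

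When the mean level of the Purkinje markers Slc1a6, Ppp1r17 and Skor2 was added to the fit as a covariate, an alternative chosen after the data were seen, 0 of 8 genes were called in Cic-S-KO cerebellum, against 24.4% of all genes in that fit. The log2 fold change of Itpr1 was then 0.087 and that of Rora 0.026 (edgeR adjusted p = 0.163 and 0.717). In Cic-L-KO, Calb1 and Rora were then called lower, by -0.15 each (edgeR adjusted p = 0.000864 and 0.00191), where 28.8% of all genes were called, so a count of 2 of 8 is near that background. Of the covariate genes, Slc1a6 and Skor2 were themselves called higher in Cic-S-KO, so the covariate and the genotype moved together. Ppp1r17 followed the mean of the 8 genes within genotypes (r = 0.95), so this fit removes part of their own variation. It therefore cannot tell what the smaller effects come from.

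A list of 24 other Purkinje cell genes, of which 22 were tested, was set beside the 8. In Cic-S-KO cerebellum 8 of 22 rose and 0 fell, where 4.34% of all genes rose and 3.89% fell, with a median log2 fold change of 0.19. Plcb3, a phospholipase C of Purkinje cells, rose by 0.39 (SE 0.064, edgeR adjusted p = 0.000645), with 7 of 7 libraries above the highest WT library, from 90.3 ± 6.46 to 119 ± 9.66 CPM. Cacna1g, a T-type calcium channel, rose by 0.33 (edgeR adjusted p = 0.00367). Pvalb, a calcium buffer that interneurons also express, rose by 0.23 (edgeR adjusted p = 0.00829), and the transcription factors Lhx5 and Skor2 by 0.25 and 0.27 (edgeR adjusted p = 0.0180 and 0.0235). The glutamate transporter Slc1a6 and Aldoc, which marks bands of Purkinje cells but is abundant in astrocytes, were also among the 8.

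In Cic-L-KO cerebellum 1 of the 22 rose, Pvalb by 0.17 (edgeR adjusted p = 0.0195), and 2 fell, Plcb3 by -0.19 (edgeR adjusted p = 0.0316) and Plcb4 by -0.22 (edgeR adjusted p = 0.00545). The median was 0.031, and over all genes 10.9% rose and 10.6% fell in Cic-L-KO. Without WT replicate 1, 7 rose and 1 fell in Cic-S-KO, and 1 rose and 3 fell in Cic-L-KO. The shares over all genes in that fit are not reported here. Between the knockouts, 6 of 22 were higher in Cic-S-KO and 0 lower, where 6.06% of all genes were higher. Plcb3 at 0.58 (edgeR adjusted p = 5.75e-07) and Lhx5 at 0.41 (edgeR adjusted p = 8.11e-05) led these.

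Other genes of IP3 signalling formed a list of 21 tested genes. Of these, 2 rose in Cic-S-KO cerebellum, Plcb3 and Itpr2, another IP3 receptor (0.20, edgeR adjusted p = 0.0319), and 0 fell. In Cic-L-KO 1 rose, the scaffold gene Homer2 (0.18, edgeR adjusted p = 0.0105), and 3 fell, Plcb3, Plcb4 and Impa1, which encodes an inositol monophosphatase (-0.13, edgeR adjusted p = 0.0372). Without WT replicate 1 those that fell were 1 for Cic-S-KO and 5 for Cic-L-KO, and the shares over all genes in that fit are not reported here. Medians were 0.041 and -0.036. Over all genes 4.34% rose and 3.89% fell in Cic-S-KO, and 10.9% rose and 10.6% fell in Cic-L-KO, with all libraries. The counts of this list with all libraries are near that background.

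Of 6 genes known to fall early in ataxin-1 transgenic mice, 2 rose in Cic-S-KO cerebellum, Itpr1 and Slc1a6 (0.22, edgeR adjusted p = 0.0384). In Cic-L-KO 0 of the 6 were called in either direction by edgeR, with a median of 0.064. The list shares Itpr1 and Inpp5a with the 8 genes. For this and the next lists, the shares over all genes were 4.34% higher and 3.89% lower in Cic-S-KO. In Cic-L-KO they were 10.9% higher and 10.6% lower. Of 26 hereditary ataxia genes, 1 rose (Cacna1g) and 2 fell in Cic-S-KO, among them Fgf14, which encodes a partner of sodium channels, by -0.45 (edgeR adjusted p = 0.00305). In Cic-L-KO 4 rose and 3 fell, near the shares of all genes. Elovl5, a fatty acid elongase, stood at 0.29 (edgeR adjusted p = 5.06e-05) and Fgf14 at -0.33 (edgeR adjusted p = 0.00578). Of 7 ROR receptors and related factors, Rorb rose in Cic-S-KO. In Cic-L-KO the coactivator Ppargc1a rose by 0.23 (edgeR adjusted p = 0.000181) and the repressor Nr1d2 fell by 0.36 on the log2 scale (edgeR adjusted p = 0.00775).

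Markers of neighbouring cells changed between genotypes as well. Over all genes, 4.34% rose and 3.89% fell in Cic-S-KO cerebellum, and 10.9% rose and 10.6% fell in Cic-L-KO. Of 10 granule cell markers, 6 fell and 0 rose in Cic-S-KO cerebellum, and 5 fell and 0 rose in Cic-L-KO, with Gabra6, a GABA receptor subunit of granule cells, at -0.42 and -0.38 (edgeR adjusted p = 0.0103 and 0.00620). Their summed CPM ran from 6232 to 8005 in WT, from 4442 to 6620.2 in Cic-S-KO and from 4903 to 6710.0 in Cic-L-KO. Of 8 interneuron markers, 6 rose and 0 fell in each knockout, among them Kit, a receptor of molecular layer interneurons, at 0.37 and 0.42 (edgeR adjusted p = 0.00689 and 0.000594). Their sum ran from 1870.3 to 2176 in WT, from 2271 to 2820.4 in Cic-S-KO and from 2317 to 2841 in Cic-L-KO, above every WT library in all 15 knockout libraries.

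Of 8 markers of Bergmann glia and astrocytes, 4 rose in Cic-S-KO (2 without WT replicate 1), with Hopx at 0.37 (edgeR adjusted p = 0.000645). In Cic-L-KO 3 fell, led by Gdf10, a growth factor of Bergmann glia, at -0.67 (edgeR adjusted p = 3.86e-05). Of 4 endothelial markers, 3 rose in Cic-L-KO and 0 were called in Cic-S-KO. Beside the counts with all libraries, 4.34% of all genes rose in Cic-S-KO, while 10.9% rose and 10.6% fell in Cic-L-KO. The summed CPM of 6 Purkinje cell markers, 3 of them among the 8 genes, ran from 3791 to 5464 in WT, from 4372 to 5633 in Cic-S-KO and from 4208 to 5363 in Cic-L-KO, and the groups overlapped. CPM is a share of each library, so a fall in granule cell RNA and a higher share of other cells cannot be told apart, and its part in the Cic-S-KO values was not tested.

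**Figure D5:**
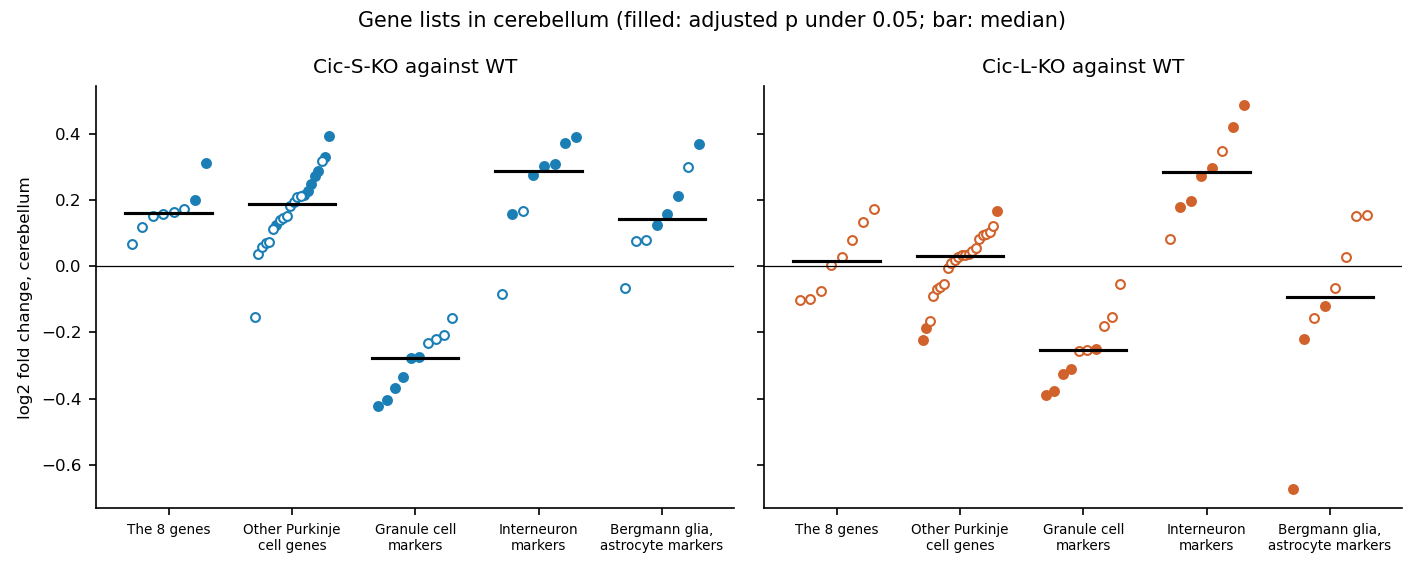
Log2 fold change against WT in cerebellum for each tested gene of 5 lists, Cic-S-KO on the left and Cic-L-KO on the right; filled points have an edgeR adjusted p under 0.05 and bars are medians. The median of the 8 genes is 0.16 for Cic-S-KO and 0.015 for Cic-L-KO, while granule cell markers are below zero in both.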

How the data were processed

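RNA of flash-frozen tissue was sequenced after polyA selection, per the labels' protocols. The authors deposited whole-number read counts for 50789 identifiers in 70 columns, each matched to 1 sample. The submitters' processing notes name STAR 2.7 and GRCm38.p6. The counting program, annotation and use of strand are not given in the sources used here. Symbols and exon lengths came from GENCODE M21 (GRCm38), matched without version for 50725 identifiers (49135 with version).

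Counts were tested with edgeR 4.0.16 (R 4.3.3, limma 3.58.1): filterByExpr, TMM, a robust quasi-likelihood fit per tissue with all 3 genotypes, and Benjamini-Hochberg adjustment over all genes, with calls at 0.05. The 46 brain samples were fitted together for interactions and for cerebellum against cortex. Standard errors came from the F statistic, and intervals cover 95%. Correlations used log2 CPM with a prior count of 2. Over 238 replicate pairs 0 were identical, and the smallest chi-square, divided by its degrees of freedom, was 4.17. On simulated cerebellum counts (Cic-S-KO against WT, 16458 genes), 53 of 100 genes changed by a log2 of 0.3 were recovered and 83 of 100 changed by 0.6, with 4 false among 140 calls.

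The 8 genes and the lists were chosen with earlier results of these data known. Named beside them were Cic, Atxn1, Atxn1l, up to 6 genes a list with the smallest adjusted p, and genes of most similar pattern. Endothelial, oligodendrocyte, microglia, choroid plexus, deep nuclei and forebrain markers were also examined. Of the microglia markers 0 were called for Cic-S-KO and 1 for Cic-L-KO cerebellum; of the oligodendrocyte markers 1 and 0; of the choroid plexus and of the deep nuclei and brainstem markers 0 in either by edgeR. For cortical excitatory neuron, striatum, thalamus and hippocampus markers 2, 0, 1 and 1 rose for Cic-S-KO cerebellum, while 1, 2, 2 and 0 rose for Cic-L-KO. Over all genes, 8.23% were called for Cic-S-KO cerebellum (4.34% higher) and 21.5% for Cic-L-KO (10.9% higher). Listed genes C1ql2, Dner, Gbx2, Inpp1, Itpkb, Prox1 and Rgs8 were not analysed here. Some genes that the naming rule covers are not reported here. Alternatives were DESeq2 1.42.0, RLE factors, other count filters, a non-robust fit, the replicate number as a block, only the genotypes compared, a Y-linked covariate, a GC adjustment in 20 bins, leaving out each cerebellum library, and, added later, a Purkinje marker covariate.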

Additional observations from a re-analysis of the deposited data

Results flagged for a closer look

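In 5 of 48 groups of values, the extreme library stood apart from the rest by Dixon's criterion, where chance gives about 2.4. In cerebellum these were WT replicate 1 for Inpp5a (409 CPM) and Itpr1 (3773 CPM), and Cic-S-KO replicate 6 for Inpp5a (477 CPM), all low. In cortex WT replicate 6 was low for Homer3 (4.18 CPM) and high for Pcp4 (1.77 CPM), both from few reads.

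The knockout effect differed between cerebellum and cortex in 5 cases by the interaction test. In Cic-S-KO the difference, on the log2 scale, was 0.49 for Itpr1 and 0.40 for Rora. In Cic-L-KO it was 0.57 for Calb1, 0.30 for Itpr1 and 0.20 for Rora. Both sets share the same WT samples.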

How the results depend on the processing

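Of 597 alternative values for single genes, 552 kept their direction and side of the threshold, 12 lost and 11 gained a call and 22 changed sign. The number of genes called in Cic-S-KO cerebellum was 1 with no count filter (where 40672 genes were tested), 1 with the replicate block, 3 with the GC adjustment (Calb1 added), 0 with the Purkinje marker covariate and 1 to 5 with a library left out, against 2. In Cic-L-KO cerebellum it was 1 with only 2 genotypes fitted or with the Y-linked covariate (Pcp2), and 2 with the Purkinje marker covariate, against 0. Cortex gave 2 in Cic-S-KO by DESeq2 (1 otherwise) and, in Cic-L-KO, 2 with no filter and 3 with RLE factors or the replicate block (4 otherwise). Cic-S-KO against Cic-L-KO cortex gave 3 with no filter (2 otherwise). Lung Cic-S-KO gave 1 with only 2 genotypes fitted, and the Cic-L-KO interaction 1 with no filter, 2 at a mean of at least 50 counts and 4 by DESeq2 (Pcp2 lower), against 3. The cause of these shifts was not tested.

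The values that changed sign were as follows. Pcp2 between the knockouts of the cerebellum was -0.0021 with no filter, -0.00053 at a mean of at least 50 counts, -1.1e-05 with 2 genotypes, -0.0090 with the Y-linked covariate, and from -0.035 to 0.041 with a library left out. Leaving out a library gave values from -0.0017 to 0.12 for Pcp4 in Cic-S-KO, and from -0.039 to 0.039 for Car8 and -0.011 to 0.055 for Inpp5a in Cic-L-KO. The GC adjustment gave -0.015 for Inpp5a in Cic-L-KO. With the Purkinje marker covariate, Cic-S-KO against WT gave -0.026 for Calb1, -0.010 for Pcp2, -0.034 for Pcp4, -0.084 for Car8, -0.020 for Homer3 and -0.036 for Inpp5a. Cic-L-KO against WT gave -0.048 for Car8 and -0.022 for Inpp5a. Cic-S-KO against Cic-L-KO gave -0.14 for Pcp2, -0.037 for Car8, -0.053 for Homer3 and -0.014 for Inpp5a.

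Whether replicate numbers mark shared animals is not given in the labels, so the samples were treated as unpaired. Not every pair correlated over 0.1, which does not settle pairing. Cortex and cerebellum samples of the same number had deviations correlated from -0.031 to 0.22 (23 pairs, 10 over 0.1), and 11 of 23 cerebellum samples correlated best with their own number, a hint from the data and not from the design. With the genotype and number as a block, the interaction called 2 genes for Cic-S-KO and 3 for Cic-L-KO, as without it. Same-numbered samples across genotypes ran from -0.39 to 0.35 (68 pairs). Numbers here are those of the sample titles. From replicate 2 on, the Cic-S-KO brain libraries have a different number in their names (replicate 2 is CB-SKO-3 and CTX-SKO-3). The shift is the same in both tissues. If library names mark shared handling, the replicate block and these pairs do not align Cic-S-KO with the other genotypes. With the replicate block, all-gene calls in cerebellum fell from 1370 to 591 in Cic-S-KO and from 3580 to 2932 in Cic-L-KO, and Itpr1 cortex between the knockouts changed sign to 0.0011. Depth limits Pcp4 throughout and Pcp2 in cortex.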
